A study of Mus musculus with 6 samples.

Results

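The angiopoietin and Tie receptor system was described in 2 mouse endothelial cell lines through 8 genes of the deposited table: the ligands Angpt1, Angpt2 and Angpt4, the receptors Tek (also called Tie2) and Tie1, the receptor phosphatase Ptprb (VE-PTP), and the angiopoietin-like genes Angptl2 and Angptl4. Members were taken by gene symbol, and all 8 were among the 24411 genes listed. Bulk RNA-seq had been made from 3 libraries of bEnd.3 and 3 libraries of UV2. The bEnd.3 line came from mouse brain endothelium transformed by the middle T antigen of polyomavirus, and the labels name BALB/c as its strain. UV2, also written UV♀2, has the strain (BALB/c x C57BL/6)F1. Both lines were grown to confluency on 10-cm dishes and then kept in medium without serum for 3 days, so no library shows either line in serum. The difference between the lines cannot be told apart from a difference between these strains in these data, since each strain is present as 1 line only.

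Tek is a receptor tyrosine kinase of endothelial cells. Angpt1, made mostly by mural and other supporting cells, activates it and favours quiet vessels with closed junctions, while Angpt2, stored in endothelial Weibel-Palade bodies, often acts against Angpt1 and is known for its rise in sprouting, hypoxic or inflamed vessels. Tie1 binds no angiopoietin by itself and modulates Tek in a shared complex, and Ptprb removes phosphate from Tek and from VE-cadherin. The angiopoietin-like proteins share the fold of angiopoietins but do not bind Tek: Angptl4 inhibits lipoprotein lipase, and Angptl2 is a secreted factor linked to integrins and inflammation.

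Total expected counts were between 21306441 and 28748128 per library. The endothelial markers Pecam1, Cdh5 and Kdr stood at 1877 CPM or more, 3759 CPM or more and 1278 CPM or more in all 6 libraries, and the summed level of 13 endothelial markers was 12916 to 13619 CPM in bEnd.3 and 11024 to 12190.4 CPM in UV2. CPM are counts scaled to a common library total with TMM factors. Of these 13 markers, 1 (Vwf) was higher and 7 were lower in UV2, where 33.9% of all tested genes were higher and 33.3% lower. The lower ones include Cldn5, the claudin of tight junctions in brain endothelium, at 1052 ± 63.2 CPM in bEnd.3 and 0.262 ± 0.0736 CPM in UV2 (SD, n = 3), and Robo4, Flt1 and Emcn, with log2 fold changes of -2.34, -1.76 and -1.47. Markers of other cells were low in sum in both lines except for leukocyte and macrophage markers. For 13 mural markers the sum was 2.73 to 3.97 CPM in bEnd.3 and 4.82 to 7.60 CPM in UV2, with Des and Cnn1 at 0 in all libraries and Rgs5 at no more than 0.0485 CPM. For 9 fibroblast markers it was 3.45 to 3.63 CPM and 27.5 to 67.6 CPM, mostly Col3a1 and Pdgfra in UV2, with Thy1 at 0. The 10 leukocyte and macrophage markers summed to 91.6 to 160.9 CPM and 610.6 to 632 CPM, mostly Cd68 and, in UV2, Lyz2, while Adgre1 was at 0 and Ptprc had 0 counts in 5 of the 6 libraries and 1 count in the sixth. Sums for 8 epithelial markers (Epcam, Krt5 and Krt14 at 0) were at most 0.964 CPM, and for 7 markers of astrocytes and neurons (Aqp4 at 0) at most 3.84 CPM. In bulk RNA, fewer cells of a type and less RNA per cell cannot be told apart, and the part of other cell types in the results was not tested.

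The comparison of the lines asked which components of this system differ between them. Angpt2 was 18.6-fold and Tie1 1.84-fold higher in UV2 than in bEnd.3, and Ptprb was 2.17-fold lower. Tek had a mean 1.33 times that of bEnd.3 and did not pass the test with line as the only term. Transcripts of Angpt1 and Angpt4 were near 0 in both lines. Of the 8 members, 5 had enough counts to be tested: 2 were higher in UV2, 1 was lower and 2 did not pass. Tests were made with edgeR over 12720 genes, of which 67.3% were called at an adjusted p under 0.05 (33.9% higher and 33.3% lower in UV2), so 3 calls among 5 tested members is near the background. Beyond 2-fold, by a test against that threshold, 19.4% of tested genes were called, and Angpt2 was the only member among them when all 6 libraries were used. Whether replicate libraries stem from separate cultures is not stated in the labels, and the p-values therefore rest on a spread that may be technical.

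**Figure D1:**
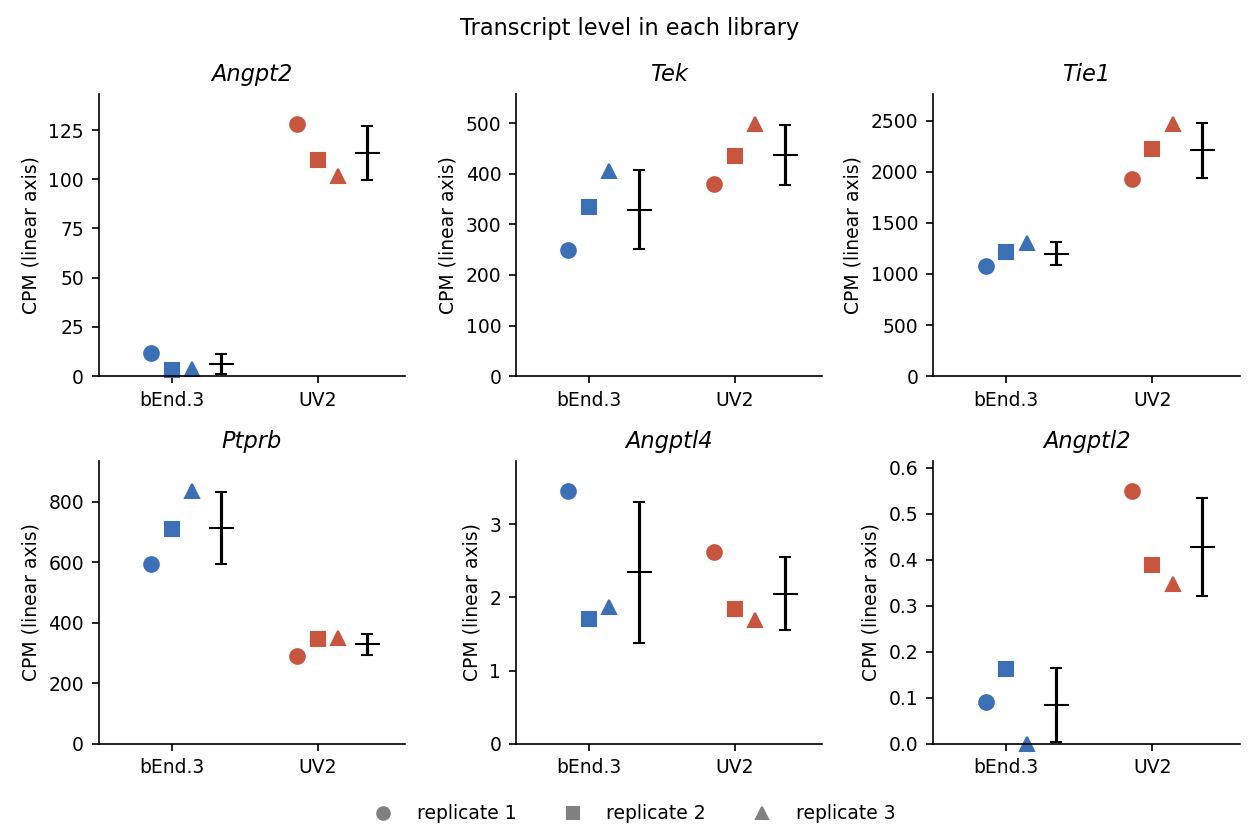
Level of 6 members in each library, in CPM on linear axes that start at 0, with bEnd.3 in blue, UV2 in red, a marker shape for each replicate number, and the mean with SD (n = 3) in black. Angpt2 lies at 102 CPM or more in UV2 and at 11.97 CPM or less in bEnd.3, Tie1 and Ptprb separate the lines in opposite directions, and the ranges of Tek and Angptl4 overlap.

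Among the ligands, Angpt2 carried the largest difference of any tested member. Its level was 11.97, 2.97 and 3.73 CPM in bEnd.3 replicates 1, 2 and 3, and 128, 110.0 and 102 CPM in UV2 replicates 1, 2 and 3. All UV2 libraries lay far above all bEnd.3 libraries, and within bEnd.3 replicate 1 stood apart at over 3 times the level of either of the others. The means were 6.22 ± 4.99 CPM (SD, n = 3) in bEnd.3 and 113 ± 13.5 CPM (SD, n = 3) in UV2, with a log2 fold change, UV2 minus bEnd.3, of 4.21 (SE 0.45, adjusted p = 8.38e-05) and an adjusted p of 0.0003 against the 2-fold threshold. Only 5.89% of tested genes had a larger log2 fold change in either direction. Without bEnd.3 replicate 1 the log2 fold change was 5.07 (adjusted p = 1.34e-07).

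Angpt2 (chromosome 8, 18690263 to 18741562, minus strand, mm10 coordinates from the RefSeq table of GRCm38.p6) lies wholly inside the span of Mcph1, a gene of chromosome condensation that runs on the opposite strand (chromosome 8, 18595116 to 18808089). The exons of the 2 genes share 0 bases in the GENCODE M21 annotation. The strand setting of the counting is not given in the sources used here, so the values of the host gene stand beside those of Angpt2. Mcph1 averaged 12.7 ± 1.44 CPM over bEnd.3 and 14.2 ± 1.53 CPM over UV2 (SD, n = 3), and its log2 fold change of 0.16 (SE 0.13) did not pass (adjusted p = 0.297).

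The other angiopoietin ligands were at the limit of detection. Angpt1 (chromosome 15, 42424667 to 42676977) had 0 counts in bEnd.3 and 1 count in UV2, in replicate 3. Angpt4 (chromosome 2, 151911207 to 151945337) had 1 count in bEnd.3, in replicate 1, and 0 counts in UV2. Both are under the floor of 3 counts over the 3 libraries of a line, which corresponds to 0.0393 CPM in bEnd.3 and 0.0427 CPM in UV2, so no fold is given and neither gene was tested. Sequenced reads are not independent molecules, and such floors cover counting error only. Angpt2 was the only angiopoietin ligand above this floor in either line.

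Both Tie receptors were abundant. Tie1 (chromosome 4, 118471191 to 118489849, minus strand) stood at 1080.4, 1215 and 1298 CPM in bEnd.3 replicates 1, 2 and 3 and at 1931, 2227 and 2469 CPM in UV2 replicates 1, 2 and 3. The lowest UV2 library was above the highest bEnd.3 library, and 73.2% of tested genes likewise did not overlap between the lines. For 30.5% of tested genes the log2 fold change, in either direction, was larger than that of Tie1. The means were 1198 ± 109.8 CPM and 2209 ± 269 CPM (SD, n = 3), with a log2 fold change of 0.88 (SE 0.11, adjusted p = 0.000221).

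Tek (chromosome 4, 94739086 to 94874976, plus strand) had 249, 333 and 405 CPM in bEnd.3 replicates 1, 2 and 3 and 379.9, 435 and 499 CPM in UV2 replicates 1, 2 and 3. The lines overlapped, because bEnd.3 replicate 3 exceeded UV2 replicate 1. The means were 329 ± 78.2 CPM and 438 ± 59.5 CPM (SD, n = 3), and the log2 fold change of 0.41 (SE 0.18) did not pass (adjusted p = 0.0672). Libraries with the same replicate number deviated together across genes, least so for number 1 (r = 0.168). Within these pairs UV2 was higher in 3 of 3, by 0.61, 0.38 and 0.30 on the log2 scale. With the replicate number as a block the log2 fold change of Tek was 0.43 and passed the test (adjusted p = 0.00421), where 68.4% of all tested genes passed. It also passed without bEnd.3 replicate 3 (adjusted p = 0.0147), without UV2 replicate 1 (adjusted p = 0.0461) and in DESeq2 (adjusted p = 0.0283), and it fell to 0.17 with the median of chromosome 4 removed (adjusted p = 0.438).

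The receptor genes lie on the same chromosome, and their promoter sequences are shown because these are the members of the receptor group that both stood higher in UV2 on average. RefSeq promoters (GRCm38.p6) were found for 4 of the 8 members: Angpt4, Tek, Tie1 and Angptl2. Positions are counted from the start site of that promoter table, and other annotated starts lie farther upstream. The Tek sequence runs from 250 to 174 bases before the table's start (chr4:94739039-94739115, plus strand); its first 47 bases lie before the RefSeq span of the gene, which begins at 94739086, and its last 30 lie inside it. The Tie1 sequence runs from 250 to 183 bases before the table's start (chr4:118490032-118490099, minus strand); its first 38 bases lie before the most upstream GENCODE M21 transcript, which starts at 118490061, and its last 30 lie inside it. A match to an ETS motif, in capitals, falls in that last stretch of Tie1, so it is upstream of the RefSeq start and inside the longer transcript. Both are written 5′ to 3′.
Tek: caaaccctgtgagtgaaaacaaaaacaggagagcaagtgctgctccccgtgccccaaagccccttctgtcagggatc
Tie1: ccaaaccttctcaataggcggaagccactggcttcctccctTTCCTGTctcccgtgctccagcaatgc
The motifs searched on both strands in the 250 bases before the start were ACAGGAA for ETS factors, GTAAACA for FOXO factors, AGATAA for GATA factors, ACGTG as the core of the hypoxia response element, and the direct repeat 1 of nuclear receptors. Tie1 held the ETS letters once, on the strand opposite to the gene, as did Angptl2, and no motif was found for Tek or Angpt4. For Tek only the first 47 of the 250 searched bases lie before the RefSeq span of the gene. The lack of a match there therefore does not describe the sequence farther upstream of that start. Of 32817 promoters, 7.20% held the ETS letters, 3.16% the FOXO letters, 9.99% the GATA letters, 16.6% the hypoxia core and 0.034% the direct repeat. A match is a description of the letters and not a binding site.

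The phosphatase that acts on Tek moved the other way. Ptprb (chromosome 10, 116275502 to 116389538, plus strand) had 593, 711 and 834 CPM in bEnd.3 replicates 1, 2 and 3 and 289, 346 and 349 CPM in UV2 replicates 1, 2 and 3. Every bEnd.3 library was above every UV2 library, a lack of overlap seen for 73.2% of tested genes. For 24.6% of tested genes the log2 fold change, in either direction, was larger than that of Ptprb. The means were 713 ± 120.5 CPM and 328 ± 33.7 CPM (SD, n = 3), with a log2 fold change of -1.12 (SE 0.13, adjusted p = 0.000163). The difference was not shown to exceed 2-fold (adjusted p = 0.309), except without bEnd.3 replicate 1, where that adjusted p was 0.0431.

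The angiopoietin-like genes were scarce. Angptl4 (chromosome 17, 33774900 to 33781575) had 3.45, 1.71 and 1.87 CPM in bEnd.3 replicates 1, 2 and 3 and 2.62, 1.84 and 1.70 CPM in UV2 replicates 1, 2 and 3. The lines overlapped, and replicate 1 was the highest library of each line. The log2 fold change was -0.18 (SE 0.32, adjusted p = 0.644), and it was 0.20 without bEnd.3 replicate 1 (adjusted p = 0.549). Angptl2 (chromosome 2, 33215951 to 33247725) had 0.0897, 0.163 and 0 CPM in bEnd.3 and 0.549, 0.388 and 0.347 CPM in UV2, from 6 and 30 counts in all. Its libraries did not overlap between the lines. The share without overlap was 73.2% among tested genes, which leave out Angptl2 and others that did not pass the filter. The ratio of UV2 to bEnd.3 was 5.43, with an exact 95% counting interval of 2.23 to 16.0 that covers counting error only. Angptl2 had too few counts for the filter, and without a filter its log2 fold change was 2.35 (SE 0.73, adjusted p = 0.0173). It lies inside the span of Ralgps1, which runs on the opposite strand (chromosome 2, 33133419 to 33371499) and shares 0 exonic bases with it. Ralgps1 stood at 12.8 ± 0.202 CPM and 15.5 ± 1.28 CPM (SD, n = 3), with a log2 fold change of 0.28 (SE 0.10, adjusted p = 0.0358) that was lost when any library but UV2 replicate 2 was left out (adjusted p = 0.112 without UV2 replicate 1).

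Levels of different genes were compared per kilobase of exon, with lengths from the GENCODE M21 basic annotation. In bEnd.3 the order of these length-scaled levels was Tie1 at 263 ± 24.1 CPM per kilobase, Tek at 69.9 ± 16.6, Ptprb at 55.5 ± 9.37, Angpt2 at 1.75 ± 1.40 and Angptl4 at 0.708 ± 0.291 (SD, n = 3). Tek and Ptprb overlapped in this order, as did Angpt2 and Angptl4. In UV2 it was Tie1 at 485 ± 59.1 CPM per kilobase, Tek at 93.1 ± 12.6, Angpt2 at 31.8 ± 3.79, Ptprb at 25.5 ± 2.62 and Angptl4 at 0.620 ± 0.15 (SD, n = 3). Angpt2 stood above Ptprb there: its lowest UV2 library was at 28.6 CPM per kilobase and the highest for Ptprb was at 27.2. Scaled to the longest transcript instead, Ptprb reached 29.3 CPM per kilobase and the order of these neighbours was not separated by the spread. Angpt1, Angpt4 and Angptl2 were at the bottom in both lines, with means of at most 0.128 CPM per kilobase.

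**Figure D2:**
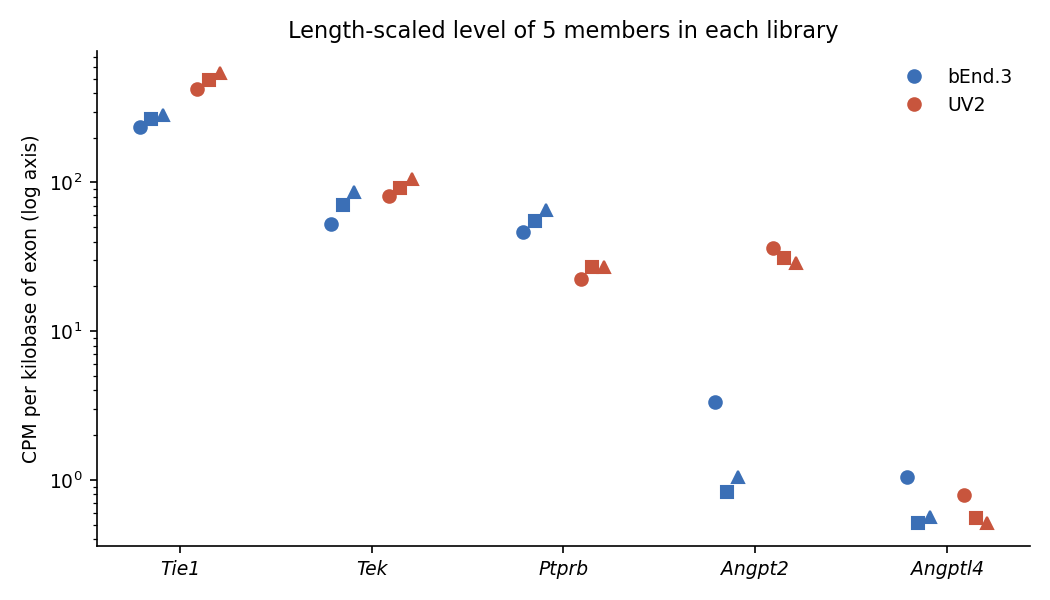
Length-scaled level of 5 members, in CPM per kilobase of exon on a log axis, with bEnd.3 libraries in blue, UV2 libraries in red and a marker shape for each replicate number. Tie1 is at the top in both lines, and Angpt2 has a mean of 1.75 in bEnd.3 and 31.8 in UV2, and Ptprb 55.5 and 25.5.

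Ratios between members were taken within each library, and gene lengths cancel when these are compared between lines. The log2 ratio of Ptprb to Tek, on CPM with a pseudocount of 0.5, was 1.25, 1.09 and 1.04 in bEnd.3 and -0.39, -0.33 and -0.51 in UV2. The ratio was higher in every bEnd.3 library than in any UV2 library, and the means differed by -1.54. Its change of sign holds for CPM only, since Ptprb is the longer gene: per kilobase of exon it was below Tek in all 6 libraries. For Tek to Tie1 the log2 ratio was -2.12, -1.86 and -1.68 in bEnd.3 and -2.34, -2.36 and -2.31 in UV2, without overlap. Of single tested genes, 73.2% did not overlap between the lines, and no such share was computed for ratios. The ratios follow from the member levels given above and are not separate evidence. The log2 ratio of Angpt2 to Tek had means of -5.83 ± 1.31 in bEnd.3 and -1.94 ± 0.36 in UV2 (SD, n = 3). No test was made on these ratios, and none is read for Angpt2 to Angpt1, where the pseudocount sets the Angpt1 level.

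Within each line, replicate 1 stood at an edge of the range for every tested member. It had the highest Angpt2 and Angptl4 and the lowest Tek, Tie1 and Ptprb of its line, both in bEnd.3 and in UV2. With 3 libraries per line, a given library is often at an edge. The share of all tested genes with such a pattern was not computed, so it is not read as particular to the members. In bEnd.3 replicate 1, Angpt2 was 1.14 above its line mean on the log2 scale, while Tek was at -0.38, Ptprb at -0.25 and Tie1 at -0.14 relative to theirs. In UV2 replicate 1 the same values were 0.18 for Angpt2, -0.20 for Tek, -0.18 for Ptprb and -0.19 for Tie1. Kdr was also lowest in replicate 1 of each line, at -0.27 and -0.29, while Pecam1 stayed within 0.055 of its line mean in all libraries. Vwf, whose protein is stored in the same Weibel-Palade bodies as Angpt2, had 29.6, 112.1 and 112.0 CPM in bEnd.3 replicates 1, 2 and 3 and 789, 886 and 934 CPM in UV2. Within each line it was lowest in the replicate where Angpt2 was highest, as were Tek, Tie1, Ptprb and Kdr. Between the lines, Vwf and Angpt2 were both higher in UV2.

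The members sit in chromosome regions that differ little in median between the lines. Among genes with an average log2 CPM above 3 and within 10 Mb, the median log2 fold change was 0.15 around Angpt2 (73 genes), 0.12 around Tek (40 genes), 0.04 around Tie1 (118 genes), 0.13 around Ptprb (50 genes) and 0.09 around Angptl4 (232 genes). The median over chromosome 4 was 0.25 (565 genes). With the local medians removed, Angpt2, Tie1 and Ptprb were called in the same directions, with log2 fold changes of 4.06, 0.84 and -1.25, and Tek was at 0.29 (adjusted p = 0.189).

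**Figure D3:**
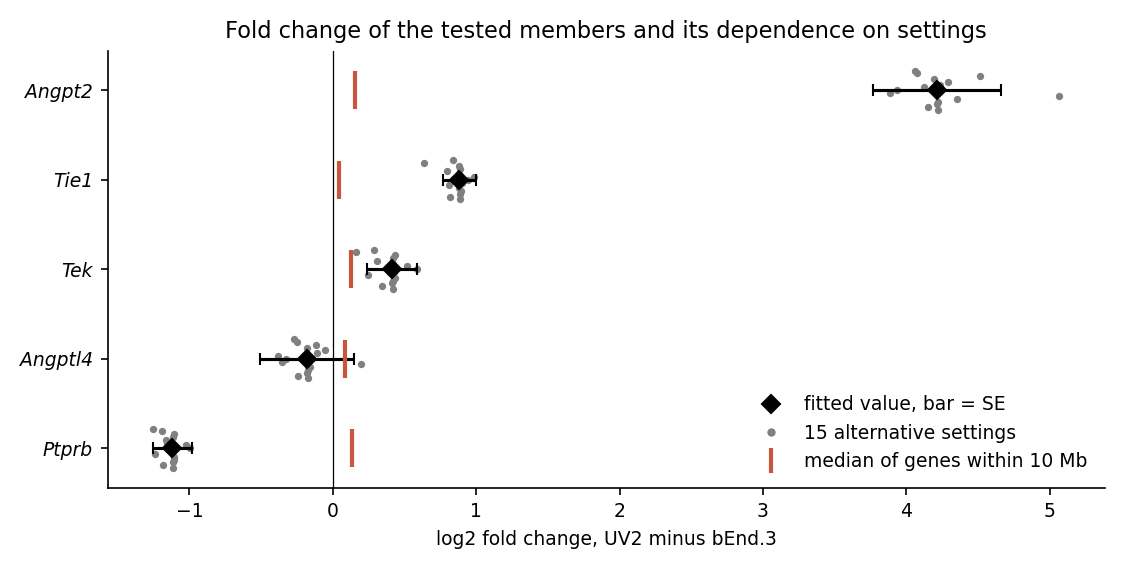
Log2 fold change, UV2 minus bEnd.3, of the 5 tested members (black diamonds, bars are SE), with the value under each of 15 alternative settings in grey and the median log2 fold change of genes within 10 Mb as a red stroke. Angpt2, Tie1 and Ptprb stay on 1 side of 0 under every setting shown, and Angptl4 crosses it once.

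Genes that work with these members were taken from 8 lists. Over the lists together, 112 of 130 genes were tested, 49 were higher in UV2 and 29 lower, which is 69.6% called against 67.3% of all tested genes. The median log2 fold change was 0.23, beside -0.01 for all tested genes. The members of each list that are named below are its highest and lowest called genes. Vwf, Cldn5, Robo4, Flt1, Emcn, Akt1, Akt2, Nos3, Foxo1, Adam17, Itga5, Itgb3, Elf1, Gata2, Ets1 and Erg were chosen after their values were seen. So were Lpl, Furin, Gpihbp1, Ppara, Ppard, Pparg, Rxra, Rxrb, Nr3c1, Cpt1a, Angptl1, Angptl6 and Angptl7.

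In the Tek signalling list, which runs from adaptors through PI3-kinase and AKT to FOXO factors, 8 of 27 tested genes were higher, 6 were lower and 13 did not pass, with a median log2 fold change of -0.04. That is 51.9% called, below the 67.3% of all tested genes. Pak1, a kinase that acts on the cytoskeleton below RAC and CDC42, rose from 14.1 ± 2.35 to 43.1 ± 4.65 CPM (log2 fold change of 1.61 with SE 0.14). Nck1, an adaptor that links receptors to PAK kinases, fell from 129 ± 6.73 to 53.1 ± 4.41 CPM (log2 fold change -1.28, SE 0.08). Nos3, the endothelial nitric oxide synthase that AKT activates, rose from 1264 ± 127.0 to 2186 ± 153.9 CPM (log2 fold change 0.79, SE 0.10). Foxo1, the factor that AKT holds out of the nucleus and that can drive Angpt2, rose from 109.8 ± 7.63 to 152 ± 3.04 CPM (log2 fold change 0.47, SE 0.07), a call lost with the local median removed (0.10, adjusted p = 0.247). Akt1 and Akt2 did not pass (adjusted p = 0.301 and 0.206). The number of higher genes was 5 without UV2 replicate 1, and with local medians removed 3 were higher and 10 lower.

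Partners of the receptors, with the proteases that cut them and the integrins that bind angiopoietins, showed 9 of 17 tested genes higher, 3 lower and 5 not passing (median 0.26). The share called was 70.6%, against 67.3% of all tested genes. Mmp14, a membrane metalloproteinase reported to cleave Tek, rose from 54.6 ± 6.86 to 809 ± 138.5 CPM (log2 fold change 3.89, or 3.19 with the local median removed, SE 0.16). Adam17, a sheddase of Tie1, rose from 127.7 ± 10.1 to 200.4 ± 1.02 CPM (log2 fold change 0.65, SE 0.07). Of the integrin chains, Itga5 rose from 561 ± 9.08 to 1425 ± 57.1 CPM (log2 fold change 1.34, SE 0.07) and Itgb3 from 235 ± 57.5 to 465 ± 17.4 CPM (log2 fold change 0.98, SE 0.16), while Itgb1 fell from 1802 ± 151 to 1348 ± 30.8 CPM (log2 fold change -0.42, SE 0.08). Jup encodes plakoglobin, a junction protein in the VE-cadherin complex that Ptprb acts on. Its level was low in bEnd.3 as well, at 1.71 ± 0.943 CPM. It had 135 counts in bEnd.3 and 0 in UV2, at least 41.4-fold lower against a floor of 3 counts over the line. Cdh5, the VE-cadherin gene, and Kdr did not pass (adjusted p = 0.767 and 0.835).

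Of 19 transcription factors tied to Tek, Tie1 or Angpt2, all tested, 9 were higher, 5 lower and 5 did not pass (median 0.30). This was 73.7% called, against 67.3% of all tested genes. The ETS factors went both ways. Elf1 rose from 48.1 ± 0.706 to 182.5 ± 8.19 CPM (log2 fold change 1.92, SE 0.07, and 1.18 with the local median removed), whereas Fli1 fell from 241.6 ± 14.8 to 150.6 ± 0.973 CPM (log2 fold change -0.68, SE 0.07), Ets1 from 536 ± 17.0 to 339 ± 30.1 CPM (log2 fold change -0.66, SE 0.08) and Erg from 363 ± 35.9 to 286 ± 16.4 CPM (log2 fold change -0.35, SE 0.09). Gata2 rose from 45.3 ± 3.71 to 113.8 ± 4.69 CPM (log2 fold change 1.33, SE 0.08), and Gata6 from 0.353 ± 0.158 to 1.36 ± 0.564 CPM (log2 fold change 1.93, SE 0.44). Among 18 tested genes of a FOXO1-responsive list, 6 were higher, 6 lower and 6 did not pass (median -0.21, 66.7% called). The list holds FOXO genes themselves, with Foxo1 among the 6 higher, and was not split by the direction of the response. Its counts and median therefore do not give a direction of FOXO1 activity. Cited2, a co-regulator, rose from 7.20 ± 0.454 to 27.6 ± 4.499 CPM (log2 fold change 1.94, SE 0.14), and Ccnd1, the cyclin D1 gene, fell from 731 ± 208 to 79.4 ± 33.4 CPM (log2 fold change -3.20, SE 0.35).

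Lipases, their helpers and the convertases tied to Angptl4 formed a list in which 7 of 11 tested genes were higher, 1 was lower and 3 did not pass (median 0.57), which is 72.7% called against 67.3% of all tested genes. The number of lower genes was 2 without bEnd.3 replicate 1 and 3 without bEnd.3 replicate 2, without UV2 replicate 3 or with the replicate block. Lpl, the lipoprotein lipase that Angptl4 inhibits, rose from 0.372 ± 0.313 to 15.6 ± 2.22 CPM (log2 fold change 5.38, SE 0.37). Its value was 6.30 when bEnd.3 replicate 2 was left out. Lipg, endothelial lipase, reached 24.5 ± 3.72 CPM in UV2 from 1732 counts and had 2 counts in bEnd.3, a ratio of 941 with an exact 95% counting interval of 260.1 to 7777 that leaves out the spread between libraries. Furin, a convertase that can cut angiopoietin-like proteins, rose from 225 ± 33.0 to 939.8 ± 151.5 CPM (log2 fold change 2.06, SE 0.15), while the convertase Pcsk6 fell from 399 ± 151.7 to 119 ± 32.8 CPM (log2 fold change -1.74, SE 0.31). Gpihbp1, which carries lipoprotein lipase across endothelium, had 80.1 ± 13.2 and 58.9 ± 12.9 CPM and did not pass (adjusted p = 0.0516).

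The PPAR and glucocorticoid list, which holds regulators known to act on Angptl4 and other targets of theirs, had 6 of 17 tested genes higher, 8 lower and 3 not passing (median -0.19). The share called was 82.4%, beside 67.3% of all tested genes. Fabp4, a fatty acid carrier and PPAR target, rose from 6.46 ± 2.71 to 256.7 ± 33.2 CPM (log2 fold change 5.32, SE 0.27), and Fabp5, its relative, fell from 266.8 ± 44.5 to 21.4 ± 5.49 CPM (log2 fold change -3.64, SE 0.20). Of the regulators, Ppard rose by 0.35 (SE 0.09) and Nr3c1, the glucocorticoid receptor, fell by 0.80 (SE 0.16) on the log2 scale. Rxra fell the most of them, from 131 ± 18.1 to 45.3 ± 2.70 CPM (log2 fold change -1.54, SE 0.11). Pparg and Rxrb did not pass (adjusted p = 0.338 and 0.104), and Ppara had too few counts to be tested. Cpt1a, a PPAR target that admits fatty acids to mitochondria, fell from 196 ± 18.7 to 65.8 ± 12.4 CPM (log2 fold change -1.58, SE 0.14). Among receptors and inflammatory partners of Angptl2, 6 of 9 tested genes were higher, 1 was lower and 2 did not pass (median 0.60, 77.8% called). The chemokine gene Ccl2 was the highest (log2 fold change 2.26, SE 0.36) and Itgb1 the lower one. Among other angiopoietin-like genes, Angptl1 and Angptl7 had at most 0.0385 CPM in any library, and Angptl6, at 2.26 ± 0.335 and 1.72 ± 0.114 CPM, missed the threshold with a log2 fold change of -0.40 (adjusted p = 0.118).

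**Figure D4:**
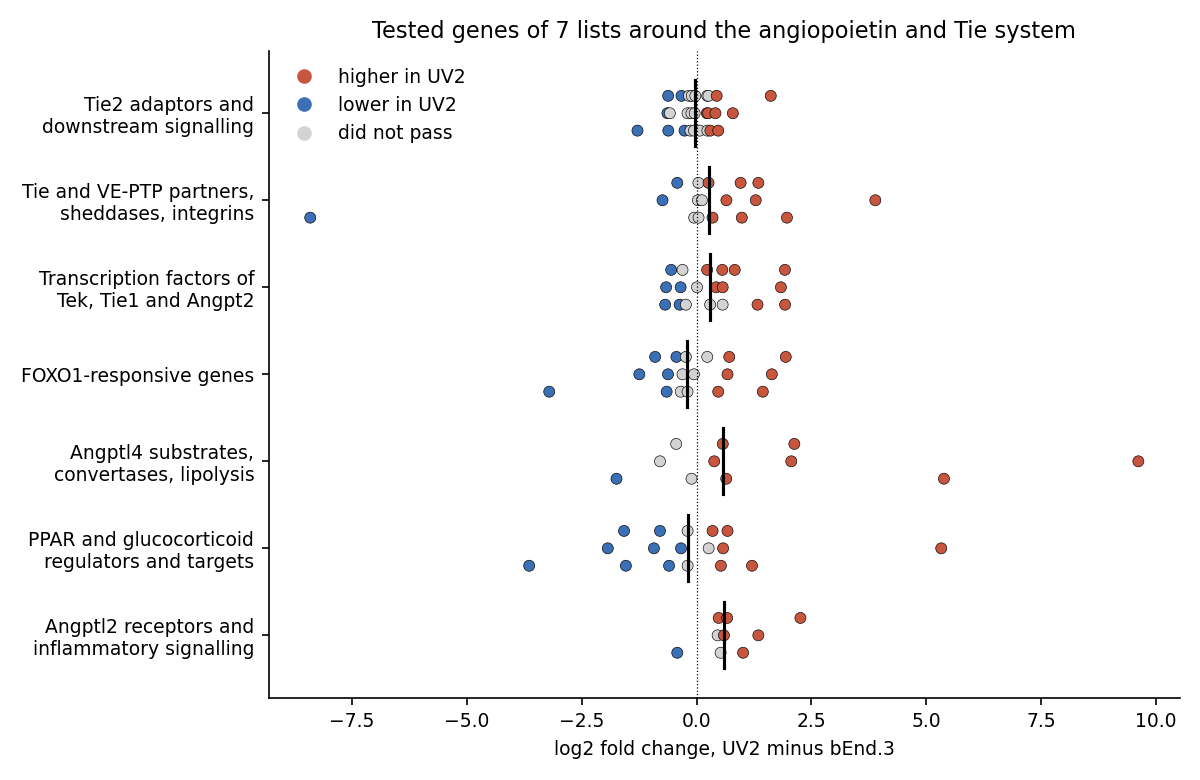
Log2 fold change, UV2 minus bEnd.3, of each tested gene in 7 lists around the angiopoietin and Tie system, coloured by its call, with the list median as a black stroke. Genes of every list go both ways, and the 2 farthest points, Jup at the left and Lipg at the right, are fitted values for genes with 0 and 2 counts in 1 line.

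The genes whose pattern over the 6 libraries was most like that of a member were found by the root mean square difference of mean-centred log2(CPM + 0.5) among 9369 tested genes (9370 for Angptl4) whose mean reached 10 CPM in 1 line or both. For Angpt2 they were Dhrs9, a retinol dehydrogenase family gene, at 0.19, and Serpinb1a, a serine protease inhibitor, at 0.27. Both had their highest bEnd.3 level in replicate 1, as Angpt2 did. The levels were 1.21 CPM against 0.163 and 0.204 for Dhrs9, and 15.8 CPM against 6.39 and 8.96 for Serpinb1a. Both genes were picked for likeness over these same libraries, so the shared replicate 1 peak is part of that choice. Dhrs9 reached a mean of 10 CPM in UV2 only, and its bEnd.3 levels rest on few counts. For Tie1 they were Ano6 at 0.05 and Uimc1 at 0.06, for Ptprb Sgsm1 at 0.06 and Pitpnm2 at 0.07, and for Tek Nfat5 at 0.08 and Arhgef3 at 0.09. For Angptl4 they were Hbegf and Il2rg, both at 0.11, which like Angptl4 were highest in replicate 1 of each line. That shared peak, too, is part of how they were picked.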

How the data were processed

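Per the labels' protocols, cells were detached with trypsin-EDTA, RNA was isolated with an RNeasy Micro Kit and libraries were made with a TruSeq Stranded mRNA kit. Trim Galore, STAR, RSEM and the build mm10 are listed per the submitters' processing notes. Tool versions, annotation and strand setting were not given in the sources used here. Expected counts per gene symbol, not normalized, are what the authors deposited; in these, RSEM divides reads that fit several genes.

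Expected counts were rounded, filtered with filterByExpr (12720 of 24411 genes), scaled by TMM and fitted with edgeR's quasi-likelihood test (robust, line as the only term) with Benjamini-Hochberg adjustment over all tested genes and a threshold of 0.05. Each SE is the absolute log2 fold change divided by the square root of the F statistic of that quasi-likelihood test. The 2-fold threshold was tested with glmTreat. Libraries of the same replicate number in the titles deviated together (r = 0.168, 0.300 and 0.346 over 9605 genes), so the replicate number was also fitted as a block. Between different numbers r was -0.364 to 0.102, highest for bEnd.3 replicate 1 with UV2 replicate 2. Deviations were taken from line means, so these r values depend on each other. The block fit is given where it changes the call of a member. With the block, 51 genes over all lists were higher and 34 lower, against 49 and 29 without it. Calls given for single list genes are those without the block. No library was a copy of another (chi-square of 11.9 to 40.7 per degree of freedom). Positions came from RefSeq GRCm38.p6 (99.6% of tested genes matched by symbol or synonym) and exon lengths from GENCODE M21, of the same assembly.

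The members and lists were chosen with earlier results of these data known. Named were all members, the top and bottom called gene per list (mean of 1 CPM or more in the higher line), the 2 genes most like each tested member, genes overlapping a member, and Pecam1, Cdh5 and Kdr. Some genes of the lists are not reported here by name. Tried as alternatives were total counts, DESeq2's size factors, no filter, 1 CPM in 3 libraries, the block, leaving out each library, DESeq2, limma-voom on unrounded counts, removal of chromosome or local (10 Mb) medians, and other pseudocounts. On simulated counts, with 12720 genes and 200 changed, 89% of the 2-fold and 100% of the 4-fold changes were called. The simulation changed a far smaller share of genes than differed between the 2 lines. Its rates therefore do not give the power of the comparison of UV2 with bEnd.3. DESeq2 1.42.0, limma 3.58.1 and edgeR 4.0.16 ran under R 4.3.3, and tables were made in Python 3.11.15.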

Additional observations from a re-analysis of the deposited data

How the results depend on the processing

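Angpt2, Tie1 and Ptprb kept their direction and their call under all 15 alternatives, with log2 fold changes of 3.89 to 5.07, 0.64 to 0.98 and -1.25 to -0.99. Tek kept its direction, from 0.17 to 0.59, and passed under 4 alternatives: with the replicate block (0.43), in DESeq2 (0.42), without bEnd.3 replicate 3 (0.59) and without UV2 replicate 1 (0.52), so leaving out 1 library gave 0.25 to 0.59. Angptl4 was never called; it ranged from -0.38 to 0.20 with a library left out, and turned to 0.20 without bEnd.3 replicate 1. The cause was not tested. Between 1 and 2 members changed beyond 2-fold when a library was left out, with Ptprb added without bEnd.3 replicate 1. The replicate block changed no other call of a member. The count of tested genes called was 7729 to 8984 over the alternatives, and over all lists 43 to 51 genes were higher and 28 to 37 lower. Of 240 counts for single lists, 16 moved by over 1.5 times, 10 of them the count of lower genes around Angptl4, which was 1 and became 2 or 3. For Angpt1 and Angpt4, with 0 or 1 count in both lines, no difference was detectable at this depth.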
